A study of Mus musculus with 40 samples.

Results

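The genes described here encode proteins of mitosis and of the G2/M transition, the step at which a cell that has copied its DNA enters division. The list holds 46 genes, chosen by symbol with earlier results of these data known. Of these, 43 had a transcript cluster of their own on the array, out of 36155 genes that did. A transcript cluster is the unit into which the Affymetrix Mouse Transcriptome Array 1.0 groups its probes, and each of the 43 genes was represented by 1 cluster. Top2a, Ccnb1 and Foxm1 lie on clusters that also carry a second symbol (Gm23451, Gm5593 and 4933413G19Rik in turn). These 3 clusters were left out of every count, and their values are given under both symbols.

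Jejunal RNA was compared between female Sftpd+/+ (WT) mice and Sftpd-/- (KO) littermates, which lack surfactant protein D, a secreted collectin of innate immunity. The knockout had been backcrossed onto C57BL/6N for more than 10 generations, and the mice were 10 to 12 weeks old. Each mouse was injected once with doxorubicin at 20 mg/kg or with isotonic saline (NaCl), intraperitoneally, and was killed at day 3 or day 7. Each of the 8 groups, named by genotype, treatment and day as in KO-Dox3 for doxorubicin-treated KO mice at day 3, held 5 mice with 1 array per mouse. The tissue was a whole piece of jejunum, with its crypts, villi, immune cells and muscle, so that fewer dividing cells and less RNA per dividing cell cannot be told apart. The deletion is constitutive and not limited to the jejunum.

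Before mitosis, cyclin A and cyclin B bind the kinase Cdk1 and switch it on, after which the spindle is built, chromosomes attach to it through their kinetochores, and the anaphase-promoting complex ends the phase by destroying cyclin B and securin. Most of these genes are transcribed only late in the cell cycle, by Mybl2 (B-Myb) and Foxm1 together with the MuvB complex. In the jejunum the dividing cells sit in the crypts. Doxorubicin poisons topoisomerase II and breaks DNA, and the p53 response to such damage is known to repress this group of genes through p21 (Cdkn1a).

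Signals were on the log2 scale as deposited, with array medians between 4.38 and 4.66. Over the 23 probe sets for background the mean was 3.45 and the highest value 6.99, and 11 of the 43 genes had a mean over the 40 arrays under that highest value. Correlations between arrays of a group ran from 0.9748 to 0.9946. The epithelial and enterocyte marker lists were above the highest background value in all groups (8 of 8 and 7 of 7 genes). Sftpd itself was read at no more than 4.31 on any array, WT or KO, so the arrays do not check the genotype. A mean was fitted for each of the 8 groups in limma and p-values were adjusted over 65956 clusters by the Benjamini-Hochberg method, with adjusted p under 0.05 taken as passing. Nothing in the labels states how mice were spread over arrays. The p-values rest on the spread between mice within groups, pooled over the 8 groups, although that spread differed between groups.

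The mean over the 43 genes in a mouse gave a first view of the 8 groups. At day 3 it was 7.61 ± 0.41 in KO-NaCl3 and 8.57 ± 0.19 in KO-Dox3 (mean ± SD of 5 mice, log2 signal). The lowest KO-Dox3 mouse (8.31) was above the highest KO-NaCl3 mouse (8.09). In WT mice the groups overlapped, at 8.16 ± 0.34 in WT-NaCl3 and 8.23 ± 0.64 in WT-Dox3. The WT-Dox3 mice were also the most widely spread, from 7.22 to 8.89. At day 7 the means were 7.90 ± 0.21 in WT-NaCl7, 7.91 ± 0.35 in WT-Dox7, 8.02 ± 0.24 in KO-NaCl7 and 7.85 ± 0.36 in KO-Dox7, and all of these groups overlapped.

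**Figure D1:**
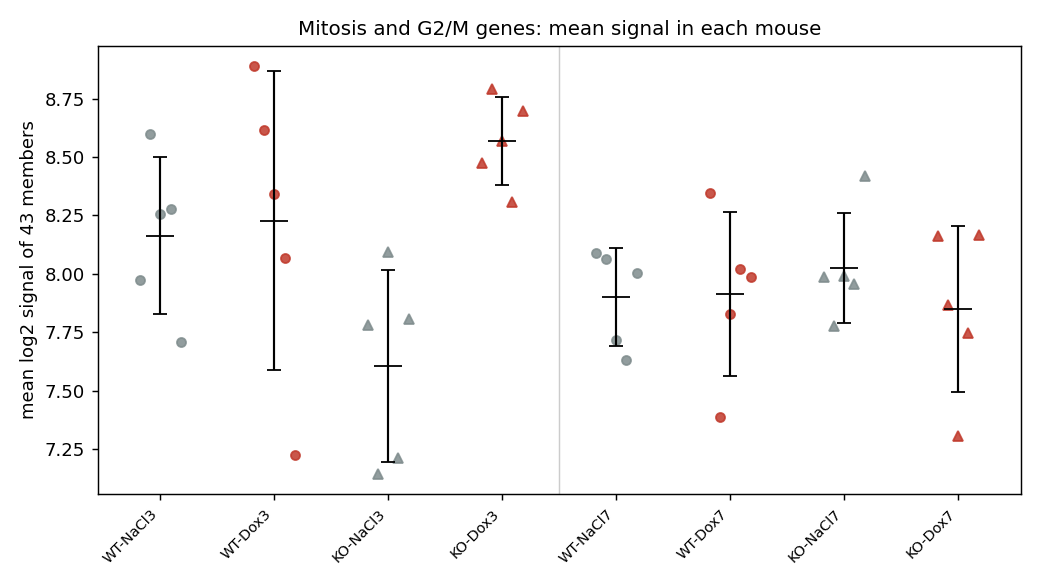
Mean log2 signal of the 43 mitosis and G2/M genes in each mouse (vertical axis) for the 8 groups of 5 mice. Circles are WT and triangles KO mice, grey is saline and red doxorubicin, bars are the mean ± SD, and the sideways spread of points only separates the mice. The KO-Dox3 mice (8.31 to 8.79) lie above all KO-NaCl3 mice (7.14 to 8.09), while the WT-Dox3 mice run from 7.22 to 8.89.

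Doxorubicin raised most of the mitotic genes in KO mice at day 3. Of the 43 genes, 37 rose, 0 fell and 6 did not pass, against 5.66% of all clusters that rose and 3.68% that fell. All 43 estimates were above 0, with a median log2 change of 0.99 (range 0.08 to 1.87) against -0.04 over all clusters. The values of KO-Dox3 and KO-NaCl3 mice did not overlap for 31 of the 43 genes. The share of all clusters without such overlap was not counted, so this count has no background beside it. The genes also moved together from mouse to mouse, so the 43 genes are not separate results. In WT mice 1 gene rose, 0 fell and 42 did not pass, against 2.6% of all clusters that rose and 2.13% that fell. The median in WT mice was 0.06 (range -0.62 to 0.70), with 25 estimates above 0 and 18 below, and 0.00 over all clusters. Without mouse 244 of WT-Dox3, 3 genes rose in WT mice (Cdk1, Incenp and Mybl2) and the median was 0.32, the highest of all settings. Without mice 144 and 244 together, a setting chosen after the data were seen, 1 gene passed and the median was 0.17.

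The count in KO mice rested in part on saline mice 182 and 254, whose mitotic signals were the lowest of the group. It was 27 without mouse 182 and 26 without mouse 254. Without both, an alternative chosen after their values were seen that leaves 3 saline mice, 10 genes passed and the median was 0.72. The 10 were Anln, Aurka, Cdc20, Cdk1, Ect2, Incenp, Kif18b, Mybl2, Pbk and Plk1, which also passed under each of the other 20 settings run. The methods' test, which is an unmoderated analysis of variance, called 19.

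**Figure D2:**
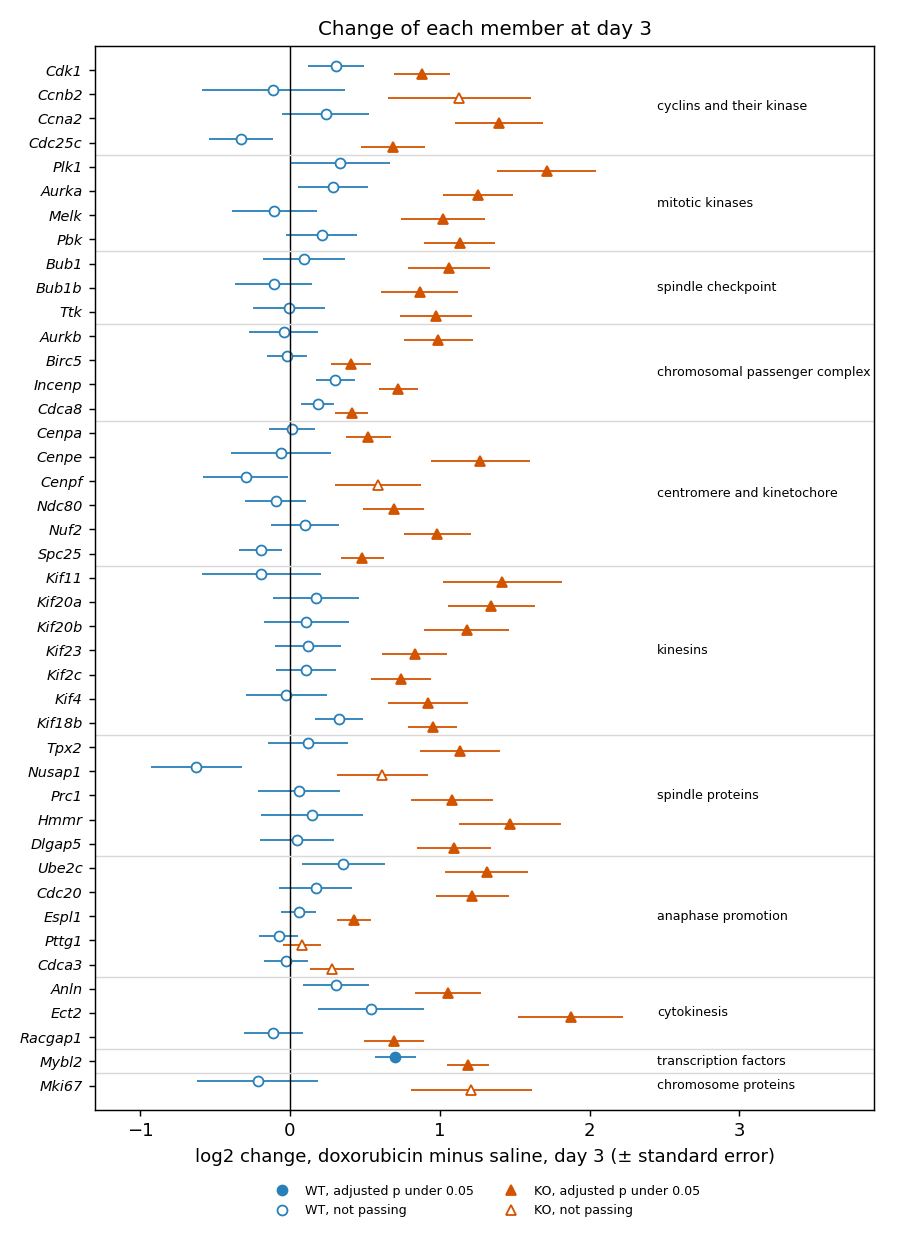
Log2 change from saline to doxorubicin at day 3 (horizontal axis, ± standard error) for each of the 43 genes, ordered by role. Blue circles are WT and orange triangles KO mice, and filled symbols passed at adjusted p under 0.05: 37 in KO mice and 1, Mybl2, in WT mice. All KO estimates lie to the right of 0, from 0.08 to 1.87.

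Among the cyclins and their kinase, 3 of 4 genes rose in KO mice and 0 of 4 in WT mice. Cdk1, the kinase that drives entry into mitosis (chr10:69336635-69352938 on GRCm38, minus strand), read 7.21, 7.00, 7.59, 7.14 and 7.16 in KO-NaCl3 mice 168, 182, 220, 254 and 292. In KO-Dox3 mice 2, 162, 196, 236 and 248 it read 7.92, 8.30, 8.25, 7.84 and 8.20. Every doxorubicin mouse was above every saline mouse, and the rise was 0.88 ± 0.19 (log2 change ± standard error, 1.84-fold, adjusted p = 0.00118). In WT-NaCl3 mice 14, 44, 46, 170 and 190 Cdk1 read 7.61, 8.10, 7.80, 7.56 and 7.25, and in WT-Dox3 mice 144, 146, 192, 232 and 244 it read 8.60, 8.23, 8.16, 7.91 and 6.95. The WT groups overlapped, and mouse 244 had the lowest value of all 10 (change 0.31, 95% interval -0.08 to 0.69, adjusted p = 0.486). Below, the values of each group follow the same order of mice.

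Ccna2, which encodes cyclin A2, rose by 1.40 in KO mice, from 10.07 ± 0.56 to 11.47 ± 0.13. Cdc25c, the phosphatase that activates Cdk1, rose by 0.69 from 5.71 ± 0.37, a level under the highest background value. Ccnb2, which encodes cyclin B2, did not pass, and it varied widely among the saline mice (11.21, 9.53, 11.43, 9.72 and 11.04). With 11.50, 12.01, 11.72, 11.41 and 11.95 after doxorubicin, its change was 1.13 ± 0.47 (adjusted p = 0.155). The cluster of Ccnb1 and Gm5593, of which Ccnb1 encodes cyclin B1, read 7.53, 6.88, 8.09, 6.73 and 7.46 in KO-NaCl3 and 8.72, 9.03, 8.70, 8.56 and 8.90 in KO-Dox3 mice. These groups did not overlap (change 1.44 ± 0.28, adjusted p = 0.000406), whereas in WT mice the cluster read 7.78, 8.69, 8.22, 8.04 and 7.58 after saline and 9.20, 8.69, 8.58, 8.26 and 7.20 after doxorubicin (change 0.32, adjusted p = 0.672).

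All 4 mitotic kinases rose in KO mice, by 1.02 to 1.71. Plk1, which encodes the polo-like kinase of centrosome maturation and spindle assembly, had the second largest change of the 43 genes. It read 9.10, 8.43, 9.73, 8.40 and 9.41 in KO-NaCl3 and 10.72, 10.67, 10.64, 10.39 and 11.22 in KO-Dox3 mice. The groups were separate, and the rise was 1.71 ± 0.33 (3.28-fold, adjusted p = 0.000346). WT mice read 9.98, 10.89, 9.92, 9.86 and 9.13 after saline and 11.24, 10.57, 10.54, 10.16 and 8.95 after doxorubicin, where the values overlapped across the whole saline range (change 0.34, adjusted p = 0.721). Aurka, the Aurora kinase of the spindle poles, rose by 1.25 in KO mice (adjusted p = 0.000241), and Pbk and Melk, kinases of dividing cells, rose by 1.13 and 1.02.

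The kinases of the spindle checkpoint, which hold anaphase until chromosomes are attached, rose in KO mice as well (3 of 3). For Bub1 the saline mice read 7.62, 6.62, 8.00, 7.09 and 7.65 and the doxorubicin mice 8.23, 8.90, 8.38, 8.11 and 8.66. The lowest doxorubicin mouse exceeded the highest saline mouse by little, and the rise was 1.06 ± 0.27 (adjusted p = 0.00813). WT mice read 7.80, 8.54, 8.19, 8.09 and 7.43 after saline and 8.91, 8.56, 8.12, 7.86 and 7.07 after doxorubicin, with no passing change (0.09, adjusted p = 0.93). Ttk, the kinase Mps1, rose by 0.98 and Bub1b, the pseudokinase BubR1, by 0.87 in KO mice.

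The chromosomal passenger complex corrects attachments at the centromere and later acts at the midzone, and its 4 genes all rose in KO mice, by 0.41 to 0.99. Aurkb, its kinase, read 6.69, 6.19, 6.94, 6.04 and 6.74 in KO-NaCl3 and 7.47, 7.56, 7.78, 7.21 and 7.53 in KO-Dox3 mice. The groups did not overlap (change 0.99 ± 0.23, adjusted p = 0.00304). In WT mice Aurkb read 7.11, 7.55, 7.24, 7.08 and 6.58 after saline and 7.71, 7.57, 7.21, 6.87 and 6.00 after doxorubicin (change -0.04, adjusted p = 0.968). Birc5, which encodes survivin, had the lowest mean signal of the 43 genes (5.36 over 40 arrays). It read 5.22, 5.20, 5.29, 5.19 and 5.22 and 5.54, 5.43, 5.84, 5.53 and 5.81 in KO mice, all below the highest background value. The change of Birc5 was small and only just passed (0.41 ± 0.13, adjusted p = 0.0456), and in WT mice, at 5.43, 5.63, 5.32, 5.25 and 5.37 after saline and 5.73, 5.73, 5.57, 4.99 and 4.89 after doxorubicin, it was -0.02 (adjusted p = 0.976). Incenp, the scaffold of the complex, rose by 0.72 ± 0.13 in KO mice (adjusted p = 0.000127), with saline mice within 7.47 to 7.78 and doxorubicin mice within 8.22 to 8.56. Cdca8, which encodes borealin, rose by 0.41.

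Of 6 genes of the centromere and kinetochore, 5 rose in KO mice. Cenpe, a kinesin of the kinetochore, had the largest change of these (1.27, adjusted p = 0.0091), followed by Nuf2 (0.98), Ndc80 (0.69) and Spc25 (0.48), which encode subunits of the Ndc80 complex that grips microtubules. Cenpa encodes the histone that marks the centromere and read 6.72, 6.64, 7.06, 6.70 and 7.03 in KO-NaCl3 and 7.31, 7.25, 7.77, 7.10 and 7.34 in KO-Dox3 mice. Its groups were separated by a narrow gap (change 0.52 ± 0.15, adjusted p = 0.0214). In WT mice, with 6.92, 7.44, 7.01, 6.87 and 6.99 after saline and 7.32, 7.44, 7.26, 6.87 and 6.40 after doxorubicin, the change was 0.01 (adjusted p = 0.986). Cenpf, a large protein of the outer kinetochore, did not pass in KO mice (0.59, adjusted p = 0.255).

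All 7 kinesins, the motors of spindle and midzone, rose in KO mice, by 0.74 to 1.42. Kif11, the motor Eg5 that pushes spindle poles apart, read 10.57, 9.14, 11.01, 9.23 and 10.39 in KO-NaCl3 and 11.21, 11.89, 11.61, 11.16 and 11.55 in KO-Dox3 mice. Mice 182 and 254 were more than 1 log2 unit below the other saline mice, and the rise was 1.42 ± 0.40 (adjusted p = 0.016). WT-NaCl3 mice read 10.73, 11.63, 11.44, 11.43 and 10.26 and WT-Dox3 mice 11.89, 11.83, 11.23, 10.55 and 9.04. Here the doxorubicin mice enclosed the range of the saline mice on both sides (change -0.19 ± 0.40, adjusted p = 0.894). Kif20a, needed for cytokinesis, rose by 1.34 in KO mice, Kif20b by 1.18, Kif18b by 0.95, Kif4 by 0.92, Kif23 by 0.83 and Kif2c by 0.74.

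Among 5 genes for microtubule-binding proteins of the spindle, 4 rose in KO mice. Tpx2, which activates Aurora A on the spindle, read 8.26, 7.81, 8.94, 7.58 and 8.44 after saline and 9.34, 9.47, 9.24, 9.15 and 9.51 after doxorubicin in KO mice. There was no overlap (change 1.14 ± 0.27, adjusted p = 0.0033), while WT mice with 8.51, 9.27, 9.33, 8.92 and 8.32 after saline and 9.51, 9.45, 9.16, 8.92 and 7.90 after doxorubicin differed by 0.12 (adjusted p = 0.904). Hmmr, the hyaluronan receptor RHAMM that also organises the spindle, had the third largest change in KO mice. It read 7.92, 6.83, 8.54, 7.05 and 7.95 in KO-NaCl3 and 8.97, 9.66, 8.80, 8.84 and 9.36 in KO-Dox3 mice (change 1.47 ± 0.34, adjusted p = 0.00304). The groups did not overlap, with mouse 182 nearly 2 log2 units under the lowest doxorubicin mouse. In WT mice, Hmmr at 7.97, 9.14, 8.68, 8.84 and 7.85 after saline and 9.72, 9.06, 8.63, 8.44 and 7.37 after doxorubicin changed by 0.15 (adjusted p = 0.906). Dlgap5 and Prc1, which bundle spindle microtubules, rose by 1.10 and 1.08 in KO mice. Nusap1, another spindle protein, did not pass in either genotype, and its estimates were 0.62 in KO and -0.62 in WT mice, the lowest of the 43 in WT.

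Of 5 genes that act around anaphase, 3 rose in KO mice. Cdc20, which activates the anaphase-promoting complex, read 6.75, 6.17, 6.90, 6.25 and 6.90 in KO-NaCl3 and 7.75, 7.98, 7.67, 7.54 and 8.12 in KO-Dox3 mice. The gap between the groups was wide (change 1.22 ± 0.24, 2.33-fold, adjusted p = 0.000566). WT mice read 6.95, 7.86, 7.09, 7.14 and 6.62 after saline and 7.85, 7.59, 7.53, 7.29 and 6.27 after doxorubicin (change 0.17, adjusted p = 0.826). Ube2c, the ubiquitin-conjugating enzyme of that complex, rose by 1.31 in KO mice, and Espl1, which encodes the cohesin-cutting protease separase, by 0.43. Pttg1, which encodes securin, the inhibitor of separase, had the smallest estimate of the 43 in KO mice (0.08, 95% interval -0.18 to 0.34). It was under the highest background value in all 40 mice, as was Cdca3, which promotes entry into mitosis (0.28, adjusted p = 0.3).

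All 3 genes of cytokinesis rose in KO mice. The largest change of the 43 genes belonged to Ect2, the exchange factor that switches on RhoA at the cleavage furrow (chr3:27097222-27153878, minus strand). Ect2 read 10.43, 8.83, 10.48, 8.95 and 10.17 in KO-NaCl3 and 11.81, 12.05, 11.14, 11.40 and 11.83 in KO-Dox3 mice. Every doxorubicin mouse was above every saline mouse, and the rise was 1.87 ± 0.35 (3.67-fold, adjusted p = 0.000255). WT mice read 10.43, 11.34, 10.61, 10.98 and 9.66 after saline and 11.81, 11.47, 11.22, 11.14 and 10.08 after doxorubicin, with 4 of 5 doxorubicin mice above all saline mice but mouse 44 (change 0.54, adjusted p = 0.524). Anln, which encodes the scaffold anillin of the contractile ring, rose by 1.06 in KO mice, and Racgap1, a partner of Ect2, by 0.70.

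Mybl2, which encodes the transcription factor B-Myb, was the gene that rose in both genotypes (chr2:163054635-163084688, plus strand). It read 5.90, 6.23, 6.11, 6.11 and 5.83 in WT-NaCl3 and 7.28, 6.59, 6.62, 6.89 and 6.32 in WT-Dox3 mice. All 5 doxorubicin mice, mouse 244 included, were above all saline mice, and the rise was 0.70 ± 0.14 (1.63-fold, adjusted p = 0.00128). It did not pass when only the compared groups were fitted (adjusted p = 0.0682) or in the methods' test (0.159), and over all settings its adjusted p ran from 3.93e-04 to 0.159. In KO mice it read 5.75, 5.72, 6.09, 5.64 and 5.98 after saline and 7.18, 6.87, 6.81, 6.97 and 7.30 after doxorubicin. The rise there was 1.19 ± 0.14 (adjusted p = 1.43e-07), the lowest p of the 43 genes, and Mybl2 had a small SD in every group (0.17 to 0.36). The saline levels of Mybl2 lay under the highest background value. So did its doxorubicin levels at day 3, except in WT mouse 144 and KO mice 2 and 248. The cluster of Foxm1 and 4933413G19Rik, of which Foxm1 encodes the other activator of G2/M genes, read 6.07, 5.78, 6.15, 5.92 and 6.01 in KO-NaCl3 and 6.17, 6.41, 6.54, 6.20 and 6.46 in KO-Dox3 mice. The groups did not overlap, yet the change did not pass (0.37 ± 0.14, adjusted p = 0.0975). In WT mice the cluster read 6.31, 6.63, 6.15, 6.34 and 5.91 after saline and 6.65, 6.41, 6.20, 6.03 and 5.63 after doxorubicin (change -0.08, adjusted p = 0.859).

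Mki67, which encodes the proliferation marker Ki-67 that coats mitotic chromosomes, was the brightest of the 43 genes (13.18 over 40 arrays, chr7:135689788-135716379, minus strand). It read 13.09, 11.66, 13.48, 11.79 and 13.05 in KO-NaCl3 and 13.57, 14.12, 14.00, 13.53 and 13.90 in KO-Dox3 mice. These values did not overlap, but saline mice 182 and 254 lay far below the other 3 and the change just missed the threshold (1.21 ± 0.40, adjusted p = 0.0525). It passed in 6 of 21 other settings. WT mice read 13.22, 13.80, 13.67, 13.72 and 12.68 after saline and 14.28, 14.13, 13.55, 12.66 and 11.39 after doxorubicin. The latter held both the highest and the lowest value of the 10 (change -0.22, 95% interval -1.04 to 0.61). The cluster of Top2a and Gm23451, of which Top2a encodes topoisomerase II alpha, a target of doxorubicin, read 10.85, 9.98, 11.45, 10.31 and 10.91 in KO-NaCl3 and 11.65, 12.18, 12.06, 11.50 and 11.89 in KO-Dox3 mice. There was a narrow gap between the groups (change 1.16 ± 0.30, adjusted p = 0.00895). In WT mice it read 11.38, 11.96, 11.89, 11.67 and 11.03 after saline and 12.19, 12.07, 11.69, 11.08 and 9.91 after doxorubicin (change -0.20, adjusted p = 0.844).

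**Figure D3:**
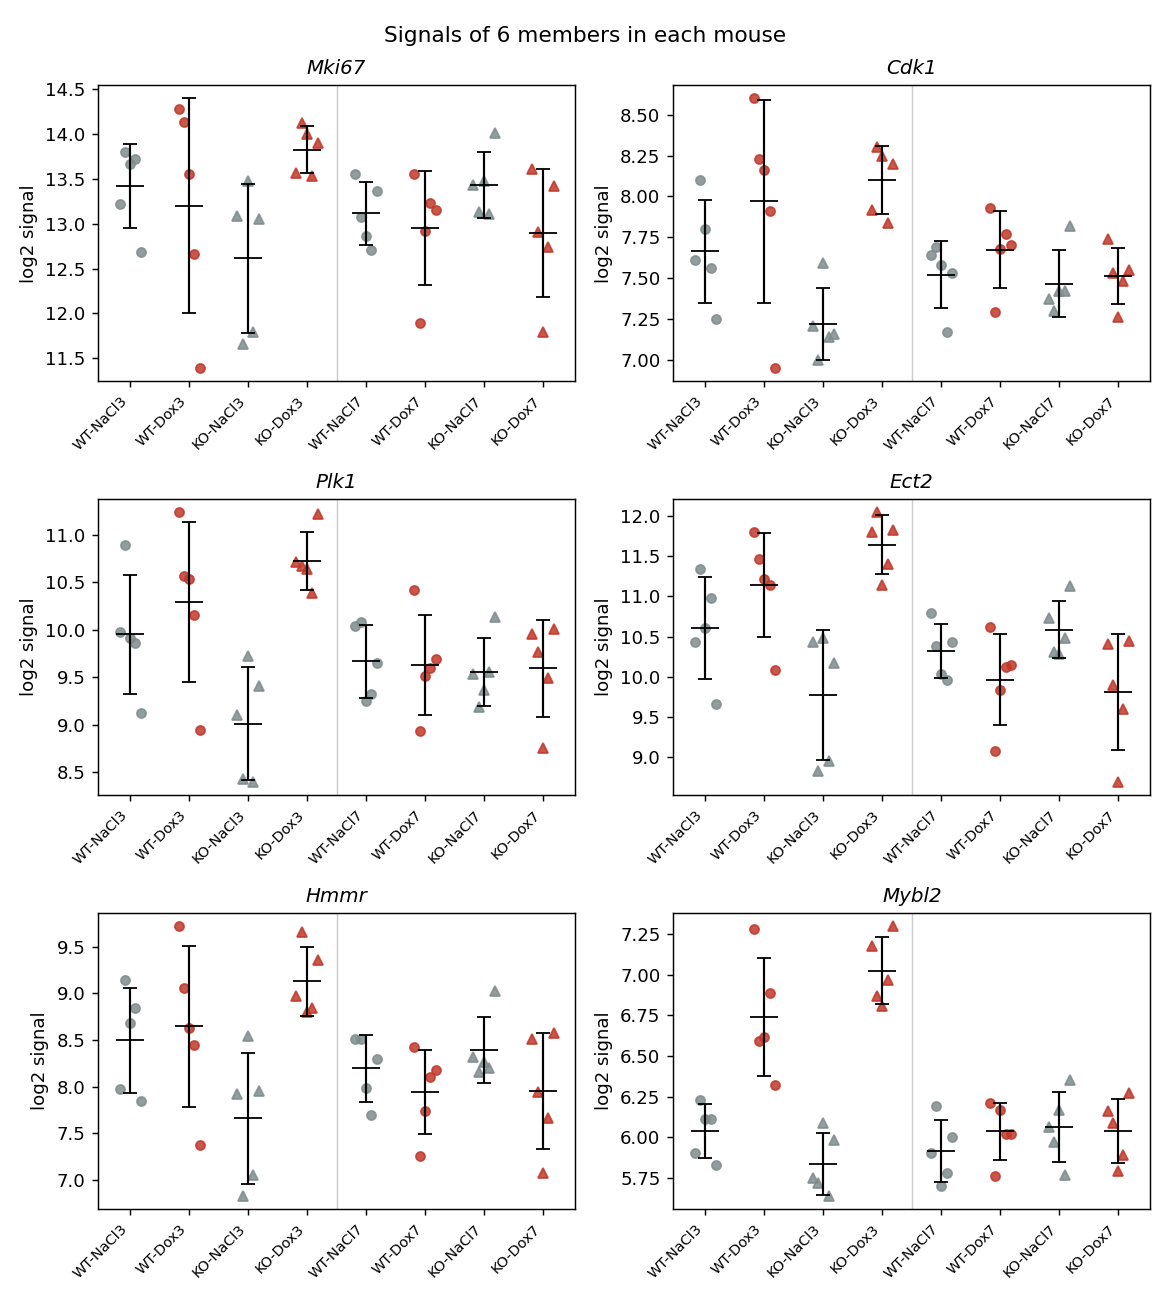
Log2 signal (vertical axis, a scale of its own in each panel) of Mki67, Cdk1, Plk1, Ect2, Hmmr and Mybl2 in each mouse of the 8 groups. Circles are WT and triangles KO mice, grey is saline and red doxorubicin, and bars are the mean ± SD of 5 mice. For all 6 genes the KO-Dox3 mice lie above the KO-NaCl3 mice, and for Mybl2 the WT-Dox3 mice (6.32 to 7.28) also lie above the WT-NaCl3 mice (5.83 to 6.23).

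Brightness went with the size of the measured change. The 32 genes with a mean above the highest background value had a median change of 1.09 in KO mice, and 28 of them passed. The 11 dimmer genes (Cdc25c, Aurkb, Birc5, Cdca8, Spc25, Kif18b, Espl1, Pttg1, Cdca3, Racgap1 and Mybl2) had a median of 0.48, and 9 of them passed.

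Promoter sequence was described for the genes of the list, whether or not they passed in KO mice. The motif shares therefore describe the list as chosen and are no measure of the rise. RefSeq windows of 250 bases before and 50 after the start of the gene (GRCm38.p6) were found for 35 of the 43 genes. The letters searched, on both strands, were CCAAT, the site of NF-Y, and TTTGAA and TTCGAA, which are forms of the CHR element that MuvB complexes bind. No other form was searched, so a window without a match is not shown to lack the element. CCAAT was in 25 of 35 windows (71.4%, against 41.1% of 27025 genes), TTTGAA in 27 (77.1%, against 20.2%) and TTCGAA in 2, Bub1 and Bub1b (5.71%, against 1.8%). CCAAT and TTTGAA occurred together in 23 (65.7%, against 7.97%). A match is a run of letters and not a shown site. The median change in KO mice was 0.98 over the 25 genes with CCAAT and 0.86 over the 10 without it. It was 0.95 over the 27 genes with TTTGAA and 1.003 over the 8 without it.

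The 200 bases before the start are printed below for 5 genes and for Mybl2, the sole gene of the list that rose in WT mice. They run 5′ to 3′ on the strand of the gene, with the 3 motifs in capitals on either strand. ATTGG is CCAAT and TTCAAA is TTTGAA read on the other strand. Cdk1, Ccnb2, Cdc20, Kif11 and Mki67 each hold both CCAAT and TTTGAA, whereas Mybl2 holds none of the 3 motifs in these bases. That was not particular to Mybl2. Over the whole windows, 6 of 35 held none of the 3 (17.1%, against 46.9% of all genes). These were Birc5, Melk, Mybl2, Nuf2, Nusap1 and Pttg1.
Cdk1, chr10:69352913-69353112, minus strand: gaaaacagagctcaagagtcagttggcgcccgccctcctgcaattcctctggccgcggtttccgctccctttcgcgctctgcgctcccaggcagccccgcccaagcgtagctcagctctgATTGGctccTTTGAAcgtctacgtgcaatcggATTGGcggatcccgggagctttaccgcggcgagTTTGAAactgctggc
Ccnb2, chr9:70421555-70421754, minus strand: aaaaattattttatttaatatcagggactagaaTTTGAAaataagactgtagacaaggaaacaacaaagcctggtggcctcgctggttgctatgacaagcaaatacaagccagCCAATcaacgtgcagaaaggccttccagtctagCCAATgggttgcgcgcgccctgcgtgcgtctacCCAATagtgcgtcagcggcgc
Cdc20, chr4:118437344-118437543, minus strand: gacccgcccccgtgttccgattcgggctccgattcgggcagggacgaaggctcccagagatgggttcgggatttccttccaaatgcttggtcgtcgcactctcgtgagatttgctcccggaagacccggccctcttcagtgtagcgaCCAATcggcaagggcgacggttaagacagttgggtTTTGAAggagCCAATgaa
Kif11, chr19:37376182-37376381, plus strand: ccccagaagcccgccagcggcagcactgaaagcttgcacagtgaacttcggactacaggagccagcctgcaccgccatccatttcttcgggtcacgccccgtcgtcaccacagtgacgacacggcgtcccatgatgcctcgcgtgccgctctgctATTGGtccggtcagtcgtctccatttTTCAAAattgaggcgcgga
Mki67, chr7:135716380-135716579, minus strand: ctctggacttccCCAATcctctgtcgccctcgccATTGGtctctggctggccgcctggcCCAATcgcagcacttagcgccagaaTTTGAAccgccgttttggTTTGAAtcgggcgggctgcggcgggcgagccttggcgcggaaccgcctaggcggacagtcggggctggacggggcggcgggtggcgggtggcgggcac
Mybl2, chr2:163054435-163054634, plus strand: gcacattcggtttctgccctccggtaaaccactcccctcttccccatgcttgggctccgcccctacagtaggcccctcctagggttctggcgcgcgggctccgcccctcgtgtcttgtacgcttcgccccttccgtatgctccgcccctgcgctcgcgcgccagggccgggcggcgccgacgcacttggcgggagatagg
In Cdk1 the CCAAT and TTTGAA runs all lie within 80 bases of the start, and in Ccnb2 there are 3 CCAAT runs within 87 bases. Cdk1, Cdc20 and Kif11 passed in KO mice, and Ccnb2 and Mki67 did not.

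The genes moved together from mouse to mouse within groups. In WT-Dox3, mouse 244 had the lowest value for 43 of 43 genes and mouse 144 the highest for 35. In KO-NaCl3, mouse 182 was lowest for 25 and mouse 254 for 16, and mouse 220 was highest for 38. In WT-NaCl3, mouse 44 was highest for 38 and mouse 190 lowest for 37, while KO-Dox3 had mouse 236 lowest for 33 and mouse 162 highest for 26. At day 7, mouse 102 was lowest for 40 and mouse 96 highest for 41 in WT-Dox7, mouse 136 lowest for 38 in KO-Dox7 and mouse 42295 highest for 42 in KO-NaCl7. The median SD over genes was 0.63 in WT-Dox3 and 0.22 to 0.42 in the other 7 groups.

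**Figure D4:**
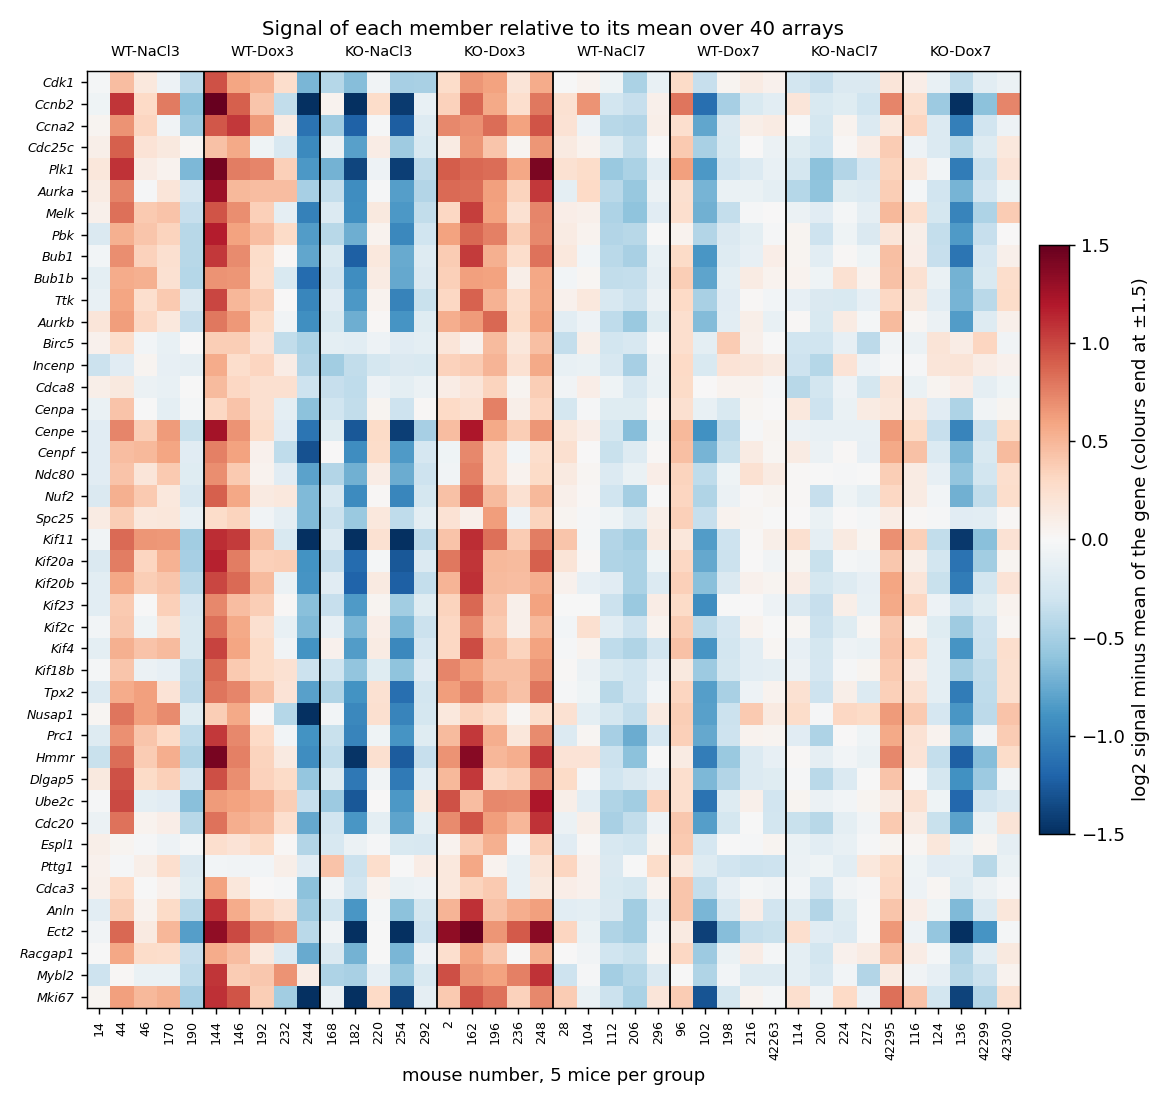
Log2 signal of each of the 43 genes (rows) in each of the 40 mice (columns, numbered as in the labels), after the mean of the gene over all arrays was taken off. Red is above and blue below that mean, and colours end at ±1.5. Whole columns differ: mice 244, 182, 254, 102 and 136 are blue and mice 144, 44 and 42295 red for nearly all genes.

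Some of these mice also stood apart in markers of other cells. Mouse 244 had a mean of 9.19 over 8 leukocyte markers, against 7.38 to 7.62 in the other WT-Dox3 mice, and a mean of 6.63 over 6 crypt stem cell markers, against 7.33 to 7.88. Mouse 254 had a mean of 12.38 over 3 Paneth cell markers, against 16.61 to 17.85 in the other KO-NaCl3 mice, and mouse 136 had 14.00, against 15.50 to 16.73 in the other KO-Dox7 mice. Mouse 102 had a mean of 13.34 over 8 smooth muscle markers, against 11.53 to 12.22 in the other WT-Dox7 mice. Smooth muscle also differed with treatment. Over its 8 markers, KO-NaCl3 mice averaged 11.71 to 12.96 and KO-Dox3 mice 10.97 to 11.71, and 6 of 8 fell, with Synm at -1.71 and Myh11 at -1.62, while Acta2 and Tagln did not pass. In WT mice the ranges were 11.58 to 12.40 and 11.16 to 11.99, and 1 of 8 fell (Synm). Of the 2 KO-NaCl3 mice with low mitotic genes, mouse 182 had the highest smooth muscle mean of its group (12.96) and mouse 254 the lowest (11.71). The other lists changed in fewer genes in KO mice at day 3, with 1 of 3 Paneth cell, 1 of 5 goblet cell, 1 of 8 leukocyte and 1 of 6 germinal centre B cell markers higher and 0 lower, 1 of 8 epithelial markers higher and 1 lower, and 2 of 7 enterocyte markers lower. In WT mice 1 of 8 epithelial markers was higher and 1 lower, and no Paneth cell, goblet cell, leukocyte, germinal centre B cell or enterocyte marker passed in limma. The part of these markers in the changes of the mitotic genes was not tested.

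The doxorubicin effect was not shown to differ between the genotypes. In the test of that difference at day 3, 0 of 43 genes passed in limma, as did 0% of all clusters, and the lowest adjusted p was 0.75. All 43 estimates were above 0 (median 0.97, range 0.16 to 1.61), and 39 had an unadjusted p under 0.05, against 6.49% of all clusters. Because the genes moved together within mice, these estimates are not independent of each other, and the count of 39 does not measure the strength of a difference. Kif11 had the largest estimate (1.61 ± 0.56, 95% interval 0.46 to 2.75), followed by Mki67 (1.43) and Plk1 (1.38), and Mybl2 was at 0.49. Without mice 182 and 254 the median was 0.61, without mouse 244 it was 0.69, and without mice 144 and 244 together it was 0.83.

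This interaction uses the same mice as the comparisons of KO with WT, whose values are given beside it. After saline at day 3, KO mice had the lower mean for 42 of 43 genes, with a median of -0.59, and 28 had an unadjusted p under 0.05, against 9.5% of all clusters. Here too the genes are not independent of each other. No gene of the list passed, against 0.0258% of all clusters, and the lowest adjusted p was 0.319 (Dlgap5, -0.80). The median was -0.28 without mice 182 and 254. In the same comparison all 8 smooth muscle markers had the higher mean in KO mice (0.33 to 0.69), and all 8 leukocyte markers (median -0.56) and all 3 Paneth cell markers (median -0.86) the lower, with none passing, and their part in the result was not tested. After doxorubicin at day 3, KO mice had the higher mean for 43 of 43, with a median of 0.33. Of these genes 2 had an unadjusted p under 0.05, against 8.43% of all clusters, and 0 passed, against 0.0106%. Without mouse 244 that median was 0.09, and without mice 144 and 244 together it was 0.22. For Plk1 the KO minus WT difference was -0.94 after saline and 0.44 after doxorubicin, for Ect2 -0.83 and 0.50, and for Mki67 -0.80 and 0.62.

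By day 7 no gene of the list passed in either genotype. In WT mice the median change was 0.02 (range -0.36 to 0.33), and 0.0182% of all clusters passed. Unadjusted p in limma was under 0.05 for 3 of the 43 genes, against 8.51% of all clusters. In KO mice the median change was -0.15 (range -0.78 to 0.33), with 36 of 43 estimates below 0, and 0.92% of all clusters passed. Here 2 genes had an unadjusted p under 0.05, against 12.1% of all clusters. Ect2, highest in change at day 3, read 10.73, 10.31, 10.28, 10.48 and 11.13 in KO-NaCl7 mice 114, 200, 224, 272 and 42295 and 10.41, 9.90, 8.69, 9.60 and 10.45 in KO-Dox7 mice 116, 124, 136, 42299 and 42300. These values overlapped, with the lowest estimate of the 43 at day 7 (-0.78 ± 0.35, adjusted p = 0.365). Mki67 read 13.43, 13.13, 13.48, 13.11 and 14.01 and 13.61, 12.91, 11.79, 12.74 and 13.42 in the same mice (change -0.54, adjusted p = 0.636). Cdk1 was at 7.37, 7.30, 7.42, 7.42 and 7.82 after saline and 7.74, 7.53, 7.26, 7.48 and 7.55 after doxorubicin, where mouse 42295 exceeded all doxorubicin mice (change 0.05).

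Mybl2 was at 6.06, 5.97, 6.17, 5.77 and 6.35 and 6.16, 6.09, 5.79, 5.89 and 6.27 in KO-NaCl7 and KO-Dox7 mice, and at 5.90, 6.19, 5.70, 5.78 and 6.00 and 6.21, 5.76, 6.17, 6.02 and 6.02 in WT-NaCl7 mice 28, 104, 112, 206 and 296 and WT-Dox7 mice 96, 102, 198, 216 and 42263. All 20 values lay under the lowest doxorubicin mouse of day 3 except mouse 42295, at 6.35. In WT mice at day 7, Mki67 read 13.56, 13.08, 12.86, 12.71 and 13.36 after saline and 13.56, 11.89, 12.92, 13.23 and 13.15 after doxorubicin (change -0.16, adjusted p = 0.962). KO and WT mice did not differ past the threshold at day 7 for any gene of the list. After saline the median was 0.15, and 0.0773% of all clusters passed. After doxorubicin the median was -0.06, and 0.00606% of all clusters passed. In both, 0 genes of the list had an unadjusted p under 0.05, against 16.7% and 4.26% of all clusters in turn. The difference between genotypes in the doxorubicin effect at day 7 had 0 of 43 genes past the threshold (median -0.18), as it had 0% of all clusters. Its unadjusted p was under 0.05 for 0 genes of the list, against 6.06% of all clusters.

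The change with doxorubicin in KO mice was smaller at day 7 than at day 3. In the test of that difference, 20 of 43 genes were lower at day 7, 0 were higher and 23 did not pass, against 3.37% of all clusters that were lower. All 43 estimates were below 0, with a median of -1.11. Ect2 differed by -2.65 ± 0.50 (adjusted p = 0.000865), Kif11 by -1.98, Hmmr by -1.91 and Mybl2 by -1.21 ± 0.20 (adjusted p = 0.000172). Birc5 had the smallest difference (-0.07). This comparison shares the day 3 mice of the KO comparison above. The saline groups of the 2 days differed as well as the doxorubicin groups. The mean over the 43 genes was 7.61 in KO-NaCl3 and 8.02 in KO-NaCl7, and 8.57 in KO-Dox3 and 7.85 in KO-Dox7. The shares of these 2 shifts in the result were not tested. The count of 20 became 11 without mouse 182, 11 without mouse 254, 11 without mouse 136, 13 without mouse 42295 and 3 without mice 182 and 254 together. Markers of other cells moved in the same test, with 2 of 3 Paneth cell markers lower (Ang4 at -4.80 and Mmp7 at -3.01), 1 of 8 smooth muscle markers higher (Synm at 1.31), 1 of 6 germinal centre B cell markers lower (Mybl1 at -1.23), and 2 of 8 epithelial markers lower and 1 higher (Krt18 at -2.11, Krt19 at -0.86 and Cldn7 at 0.82). No crypt stem cell, leukocyte, goblet cell or enterocyte marker passed. At day 7 itself, few markers of each list fell with doxorubicin in KO mice and 0 of these lists rose in any marker. Those that fell were 1 of 3 Paneth cell (Ang4, -4.58) and 2 of 8 leukocyte markers, among them the B cell gene Cd79a (-1.77). Also lower were 1 of 6 germinal centre B cell (Rgs13, -3.33), 1 of 6 crypt stem cell (Lgr5, -1.11) and 1 of 8 epithelial markers (Krt18, -1.23). The part of these markers in the result was not tested. In WT mice the test of the day difference had 0 of 43 genes past the threshold, against 0.841% of all clusters, with a median of -0.01. There 1 gene had an unadjusted p under 0.05, against 9.9% of all clusters.

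Other genes of the division machinery were followed as lists. The S phase list, of genes for DNA replication and nucleotide supply, had 19 measured genes and all rose in KO mice at day 3 (median 0.87), led by Rrm2 (3.01) and Rrm1 (1.88), which encode ribonucleotide reductase. In WT mice 2 of 19 rose, Rrm2 (1.66) and the helicase gene Mcm4 (0.83), with a median of 0.33. Of 27 further kinetochore genes, 13 rose in KO mice (median 0.50), with Cenpm at 1.43 and Zwilch at 1.34 and the checkpoint gene Mad2l1 at 1.03, and 2 rose in WT mice, Cenpm (0.69) and Cenpt (0.34). Of 15 genes for condensin and cohesin, the rings that compact and hold chromosomes, 7 rose in KO mice (median 0.53), with Ncaph at 1.72 and Smc2 at 1.42. In WT mice 2 fell, Rad21 (-0.39) and Stag2 (-0.38).

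Of 15 subunits and activators of the anaphase-promoting complex, 7 rose and 1 fell in KO mice (median 0.34). Cdc27 (0.69) and Cdc16 (0.65) rose and Anapc2 (-0.64) fell, and in WT mice 2 fell, Anapc2 (-0.44) and the activator gene Fzr1 (-0.35). Of 17 E2F, pocket protein and MuvB genes, 7 rose and 3 fell in KO mice (median 0.29), with Tfdp1 (1.17) and Lin9 (0.64) rising and Rb1 (-0.65) and Tfdp2 (-0.63) falling. In WT mice 1 rose, Tfdp1 (0.59), and 4 fell, with Rb1 (-0.54) and Tfdp2 (-0.52) the furthest.

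The genes that restrain entry into mitosis were split. Of 16, 6 rose and 2 fell in KO mice (median 0.23), and 1 rose and 1 fell in WT mice (median -0.01). The p53 target Ccng1 rose by 3.28 in WT and 3.48 in KO mice, and Gadd45b, a stress gene that can inhibit Cdk1, by 1.51 in KO mice. The p21 gene Cdkn1a rose by 0.55 in KO mice (adjusted p = 0.039) and did not pass in WT mice. The checkpoint kinase gene Chek1 rose by 0.99 in KO mice, and Wee1, which encodes the kinase that inhibits Cdk1, did not pass (0.16). Gadd45a fell in both genotypes (-0.61 and -0.62), and Ccng2 fell in KO mice (-0.76). Of the crypt stem cell markers, 2 of 6 fell and 0 rose in KO mice (Lgr5 at -0.89 and Rgmb at -0.65) and 4 of 6 fell in WT mice (Olfm4 at -2.46 and Lgr5 at -1.25). At day 7 no gene of the 6 division lists passed in either genotype. The background shares given above for each comparison apply to these counts.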

How the data were processed

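Jejunal RNA of 40 mice was hybridised to Affymetrix Mouse Transcriptome Array 1.0 arrays, 1 per mouse. The authors deposited signals on the log2 scale. Their processing notes name Affymetrix Expression Console, RMA and Transcriptome Analysis Console, and RMA corrects background and normalises between arrays, so levels are relative to the array and not absolute. The table had 72688 probe sets, of which 6732 control probe sets were left out and 65956 transcript clusters tested. Gene symbols and positions came from the deposited table of the authors' comparison in KO mice at day 3, and its log2 group averages were used to check the match of probe sets (correlation with the group medians 0.9999 in KO-NaCl3 and KO-Dox3). No fold or p-value computed by the authors was used.

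In limma 3.58.1 (R 4.3.3) a mean was fitted for each of the 8 groups, followed by moderated tests of 12 comparisons with Benjamini-Hochberg adjustment over all clusters (threshold 0.05). The fit was run on simulated data with planted changes, where noise was independent between clusters and had the same SD in all groups. That simulation does not cover genes that move together within mice, or groups that differ in spread. A gene was represented by the cluster that carried its symbol alone, and a cluster shared with a second symbol was shown but not counted. Genes shown in every mouse were Mki67, Top2a, Cdk1, Ccnb1, Plk1, Aurkb, Bub1, Cenpa, Kif11, Tpx2, Cdc20, Birc5 and Foxm1, listed by role, and up to 3 with the largest change in each direction among those that passed in a doxorubicin comparison (Ect2, Plk1 and Hmmr in KO mice, Mybl2 in WT mice). Ccnb2 was shown in KO mice after its values were seen. Of the other lists the counts, the 2 largest changes in each direction and 6 named genes (Cdkn1a, Ccng1, Mad2l1, Wee1, Chek1 and Rrm2) were given. The lists were other kinetochore genes, condensin and cohesin, anaphase-promoting complex subunits, mitotic brakes, E2F and MuvB genes, S phase genes and markers of 8 cell types or tissues. Mcm7, Sgol2a, Cenpu, Lin52, Muc2, Itln1, Defa17 and Defa24 had no cluster of their own and were not counted in them. The members and lists were chosen with earlier results of these data known. Promoter windows came from RefSeq (GRCm38.p6), and figures were drawn in matplotlib 3.10.9. Signals come from hybridisation and carry no read depth, so the number of arrays (5 per group) limits the precision.

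Results were recomputed under 10 other settings, namely a fit of the compared groups only, the analysis of variance of the study's methods without moderation, a filter on low signals, adjustment over clusters with 1 symbol, a trended and robust variance prior, array weights, a further quantile normalisation, centring on array medians, the spread of each array as a covariate and the mean of all clusters of a symbol. Each mouse was also left out in turn. A further 2 settings, which left out mice 182 and 254 or mice 144 and 244 together, were chosen after the data were seen.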

Additional observations from a re-analysis of the deposited data

Results flagged for a closer look

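Among 344 sets of 5 values (43 genes in 8 groups), 15 held a mouse that lay far from the other 4 by Dixon's test, where chance gives about 1 in 20. Of these, 7 belonged to mouse 42295 of KO-NaCl7, which was above the others of its group in Cdk1 (7.82, others up to 7.42), Melk (8.01, up to 7.50), Ttk (7.61, up to 7.17), Cenpe (9.34, up to 8.61), Ndc80 (7.89, up to 7.54), Kif4 (8.57, up to 8.07) and Hmmr (9.02, up to 8.32). Mouse 44 of WT-NaCl3 was high in Cdc25c (6.92, others up to 6.23) and Cenpa (7.44, up to 7.01). Mouse 96 of WT-Dox7 was high in Cdca8 (7.08, up to 6.85) and Pttg1 (6.32, up to 5.97). Mouse 162 of KO-Dox3 was high in Kif20b (9.64, up to 9.09) and Anln (8.73, up to 8.25). Mouse 244 of WT-Dox3 was low in Ube2c (10.52, others from 11.23), and mouse 206 of WT-NaCl7 was low in Anln (7.11, others from 7.42).

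The change with doxorubicin in KO mice differed between day 7 and day 3 for 20 genes by the interaction term in limma. Day 7 minus day 3, on the log2 scale, was -1.60 for Ccna2, -1.68 for Plk1, -1.31 for Aurka, -1.35 for Pbk, -1.42 for Bub1, -1.26 for Aurkb and -1.09 for Nuf2. Among the kinesins it was -1.98 for Kif11, -1.70 for Kif20a, -1.46 for Kif20b, -0.92 for Kif2c and -1.10 for Kif18b. It was -1.39 for Tpx2, -1.91 for Hmmr, -1.41 for Dlgap5, -1.63 for Ube2c, -1.29 for Cdc20, -1.11 for Anln, -2.65 for Ect2 and -1.21 for Mybl2. Their adjusted p-values ran from 0.000172 (Mybl2) to 0.0498 (Kif2c).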

How the results depend on the processing

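Over the 12 comparisons, 278 of 288 alternative counts of genes past the threshold stayed within 1.5 times the value reported, and 9 comparisons had 0 genes of the list under every setting. In WT mice at day 3 the count of 1 became 0 when only the compared groups were fitted and 0 in the methods' test, and ran from 1 to 3 with each mouse left out in turn (3 without mouse 244, Cdk1, Incenp and Mybl2). That count stayed 1 without mice 144 and 244 together. In KO mice at day 3 the count of 37 became 19 in the methods' test and 10 without mice 182 and 254 together, and ran from 26 to 37 with each mouse left out in turn. The count of 20 for the day difference in KO mice became 3 without mice 182 and 254 together and ran from 11 to 27. The 5 mice per group, and the 11 genes near background, limit these calls. Over all clusters in WT mice at day 3, a further quantile normalisation turned 1713 higher and 1402 lower into 1281 and 1790. The cause of these differences was not tested.

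Estimates near 0 changed sign in some settings. In WT mice at day 3, without mice 144 and 244 together, Mki67 was at 0.0287, Aurkb at 0.10, Kif11 at 0.11, Birc5 at 0.03 and Ccnb2 at 0.0207. Cenpa was at -0.0617 under a further quantile normalisation and at -0.002 with centred arrays, Birc5 at 0.0074 with array weights and Ccnb2 at 0.0217 with the array spread as a covariate. In KO mice at day 3, Pttg1 was at -0.0907 without mice 182 and 254. With each mouse left out in turn, the WT day 3 change ran from -0.49 to 0.24 for Mki67, -0.20 to 0.23 for Aurkb, -0.11 to 0.35 for Bub1, -0.0835 to 0.18 for Cenpa, -0.44 to 0.28 for Kif11, -0.0195 to 0.39 for Tpx2, -0.11 to 0.11 for Birc5, -0.12 to 0.47 for Hmmr, -0.53 to 0.41 for Ccnb2, -0.50 to 0.0175 for Cenpf and -0.17 to 0.14 for Cdca3. The KO day 3 change of Pttg1 ran from -0.024 to 0.16. None of these genes passed in WT mice.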
